A study of Homo sapiens with 18 samples.

Results

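The genes described here encode 10 subunits of the integrin receptors, the alpha subunits ITGA2, ITGA3, ITGA5, ITGA6 and ITGAV and the beta subunits ITGB1, ITGB4, ITGB5, ITGB6 and ITGB8. They were taken by gene symbol from the authors' expression tables of 3 human cancer cell lines, and all 10 were found in each table, among 25673 genes for RKO, 19881 for COLO 201 and 19977 for H1975. The first pair of lines, RKO and COLO 201, came from colon cancers and H1975 from a lung cancer. Every sample, vehicle included, carried a tet-inducible short hairpin RNA against MUC1, a transmembrane mucin, with puromycin resistance. In each line 3 columns were from cells given 500 ng/ml doxycycline, which switches the hairpin on, and 3 from cells given 0.1% DMSO as the vehicle. The vehicle columns of RKO are headed DOX with no minus sign, and the others DOXplus, so that reading was inferred from the protocol. Doxycycline on a control hairpin was not analysed here, so the hairpin and the drug cannot be told apart. The series concerns the C-terminal subunit of MUC1, the natural killer cell ligands MICA and MICB, and the release of exosomes.

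Integrins are transmembrane adhesion receptors built from an alpha and a beta subunit, which bind the extracellular matrix outside the cell and are tied by talin and kindlin to actin inside it. ITGB1 pairs with many alpha subunits, among them ITGA2 for collagen, ITGA3 and ITGA6 for laminins and ITGA5 for fibronectin. ITGB4 pairs with ITGA6 alone, and their dimer is fixed by plectin to keratin filaments in the hemidesmosomes of epithelia. ITGAV pairs with ITGB1, ITGB5, ITGB6 and ITGB8, of which ITGB5 serves vitronectin binding while ITGB6 and ITGB8 bind latent TGF-beta and can set it free.

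The members lie on 7 autosomes of GRCh38 in the GENCODE annotation, all as protein-coding genes. ITGA2 is at chr5:52989326-53094779 on the plus strand, ITGB4 at chr17:75721328-75757818 on the plus strand, ITGB5 at chr3:124761948-124901418 on the minus strand and ITGB8 at chr7:20330702-20415754 on the plus strand. Exons of ITGA5, ITGA6, ITGAV, ITGB1 and ITGB8 overlap annotated genes on the opposite strand. The library kit keeps strand, but the strand setting of the authors' counting is not given in the sources used here, so reads of such pairs may be mixed in the values of those 5 members. ITGB6 overlaps a processed transcript on its own strand, AC092153.1, whose reads no strand setting separates from it. Promoter windows of RefSeq on GRCh38.p14, from 250 bases before to 50 bases after the start, were found for 8 of the 10 members. No window was used for ITGA3 or ITGB4. The bases upstream of the first annotated start are shown for 3 members. ITGA2 was taken because it was called higher with doxycycline in every line. ITGB5 and ITGB8 were taken because these alternative partners of ITGAV moved in opposite directions in COLO 201 and H1975. Capitals mark GC boxes (GGGCGG on either strand). The stretches are chr5:52989102-52989325 on the plus strand for ITGA2, chr3:124901419-124901668 on the minus strand for ITGB5 and chr7:20330650-20330701 on the plus strand for ITGB8, each printed 5′ to 3′.
ITGA2: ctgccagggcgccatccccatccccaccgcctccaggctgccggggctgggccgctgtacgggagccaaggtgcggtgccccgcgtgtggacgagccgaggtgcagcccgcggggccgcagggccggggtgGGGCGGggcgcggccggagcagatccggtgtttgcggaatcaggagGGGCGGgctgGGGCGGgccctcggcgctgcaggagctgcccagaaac
ITGB5: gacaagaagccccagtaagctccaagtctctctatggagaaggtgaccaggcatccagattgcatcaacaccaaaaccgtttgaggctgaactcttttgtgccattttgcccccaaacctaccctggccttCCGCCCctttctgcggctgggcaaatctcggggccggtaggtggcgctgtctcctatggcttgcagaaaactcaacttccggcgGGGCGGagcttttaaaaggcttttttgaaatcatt
ITGB8: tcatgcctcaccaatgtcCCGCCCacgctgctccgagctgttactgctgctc

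In the whole 300-base windows, 4 GC boxes were found for ITGA2, 3 for ITGB1, 2 each for ITGB5 and ITGB8, 1 each for ITGA5 and ITGA6 and 0 for ITGAV and ITGB6, while 45.0% of all 35116 promoters held at least 1. The TATA box TATAAA, in 11.5% of all promoters, was found for ITGA6. The AP-1 motif TGANTCA, in 7.71%, was found for ITGA5. The cAMP response element TGACGTCA, in 1.85%, was found for none of the 8. Both strands were searched, and no motif contains another. A match is a description of these letters and not a binding site.

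Values are TPM, scaled so that each column of a table adds up to 1000000, so levels are set against each other within a table and not between lines. Between 14687 and 16935 genes were above 0 per column, and read depth is unknown from TPM. MUC1, the target of the hairpin, had 1.78 ± 0.25 TPM with doxycycline and 13.9 ± 0.94 TPM with vehicle in COLO 201, and 8.01 ± 1.35 TPM with doxycycline and 97.5 ± 9.98 TPM with vehicle in H1975 (SD, n = 3 columns each). In RKO, MUC1 was at 0.108, 0.105 and 0.204 TPM with doxycycline, against 15.2, 1.24 and 1.03 TPM in vehicle columns 1, 2 and 3. Vehicle column 1 of RKO stood apart from the others in further ways. The summed level of 8 fibroblast markers was 545 TPM there, against 0.917 to 1.45 TPM with doxycycline and 2.48 and 2.26 TPM in the other 2 vehicle columns. VIM alone, the mesenchymal intermediate filament, was at 361 TPM in it. RKO results are therefore given with and without this column, and the part of its other genes in them was not tested. Colon markers summed to 2.12 to 2.74 TPM with doxycycline and 1.25 to 2.96 TPM with vehicle in RKO, with 3 of 6 at 0 in every column, so the labelled tissue is hardly seen there. They summed to 140.0 to 143 TPM with doxycycline and 199 to 203 TPM with vehicle in COLO 201, and lung markers in H1975 to 21.9 to 23.5 TPM with doxycycline and 36.1 to 41.6 TPM with vehicle. The fibroblast markers of H1975, nearly all of it VIM, summed to 515 to 581 TPM with doxycycline and 648 to 723 TPM with vehicle. The leukocyte and erythroid markers, a list of 5, summed to 392 to 489 TPM with doxycycline and 121 to 262 TPM with vehicle in RKO, 101 to 118 TPM with doxycycline and 64.8 to 68.9 TPM with vehicle in COLO 201, and 279 to 329 TPM with doxycycline and 159 to 168 TPM with vehicle in H1975. CD68, a lysosomal protein abundant in macrophages, made up most of it, and it was called higher in every line, by 1.21 in RKO (0.89 without vehicle column 1), 0.70 in COLO 201 and 0.92 in H1975 (limma adjusted p = 0.0011, 0.00208, 4.9e-07 and 4.6e-07). PTPRC, the common leukocyte antigen, was at 0.0672 TPM or less in every column. The part of these marker sums in the changes of the members was not tested.

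Doxycycline went with higher ITGA2, the collagen-binding alpha subunit, in all 3 lines. ITGB8 was lower in COLO 201 and, at low means of 0.642 TPM with doxycycline and 2.52 TPM with vehicle, in H1975. Within COLO 201 the largest difference in TPM between the arms among the 10 members was that of ITGB4, which averaged 549 ± 2.91 TPM with doxycycline and 841 ± 19.2 TPM with vehicle. Calls are limma adjusted p under 0.05, over all genes with a mean of at least 1 TPM in a line, and changes are on the log2(TPM + 1) scale, which understates those of low genes. In COLO 201 all 10 members were tested, 5 were higher and 3 lower, in a table where 61% of all genes tested were called, 45.9% higher and 15% lower. In H1975 all 10 were tested, 4 were higher and 3 lower, 1 of the lower ones, ITGB8, having passed the minimum only through its vehicle columns, beside 38.5% of all genes called, 23.9% higher and 14.6% lower. In RKO 7 were tested, 1 was higher and 1 lower, beside 18.1% of all genes called, 2.09% higher and 16.1% lower. Without vehicle column 1 of RKO, 0 were higher and 1 was lower by limma, beside 20.3% of all genes called, 2.1% higher and 18.2% lower, and at an unadjusted p under 0.05 there were 1 higher and 1 lower. The members' counts were not tested against these shares. The shares are at an adjusted p, and no share of all genes is given for counts at an unadjusted p, here or below. Counts at an unadjusted p are therefore not read as a result about the members. The values of the arms did not overlap for 8 of 10 members in COLO 201, 6 of 10 in H1975 and 3 of 7 tested in RKO, beside 65.1%, 49.1% and 36.3% of all genes tested.

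The median change of all genes tested was -0.26 in RKO, 0.12 in COLO 201 and 0.06 in H1975, and lay between -0.0067 and 0.0202 with columns rescaled by their median ratio to the geometric mean. The RKO table also lists small noncoding RNA genes, which made up 71.1% to 79.0% of TPM with doxycycline and 68.0% to 72.2% with vehicle. There, with all columns rescaled, the 220 higher and 1695 lower calls became 1453 and 1468. In COLO 201 the 5312 higher and 1740 lower calls became 3153 and 3435. Calls of members that this shift decides are named beside the gene. Without vehicle column 1 of RKO and with the rest rescaled, 58.9% of all genes were called.

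**Figure D1:**
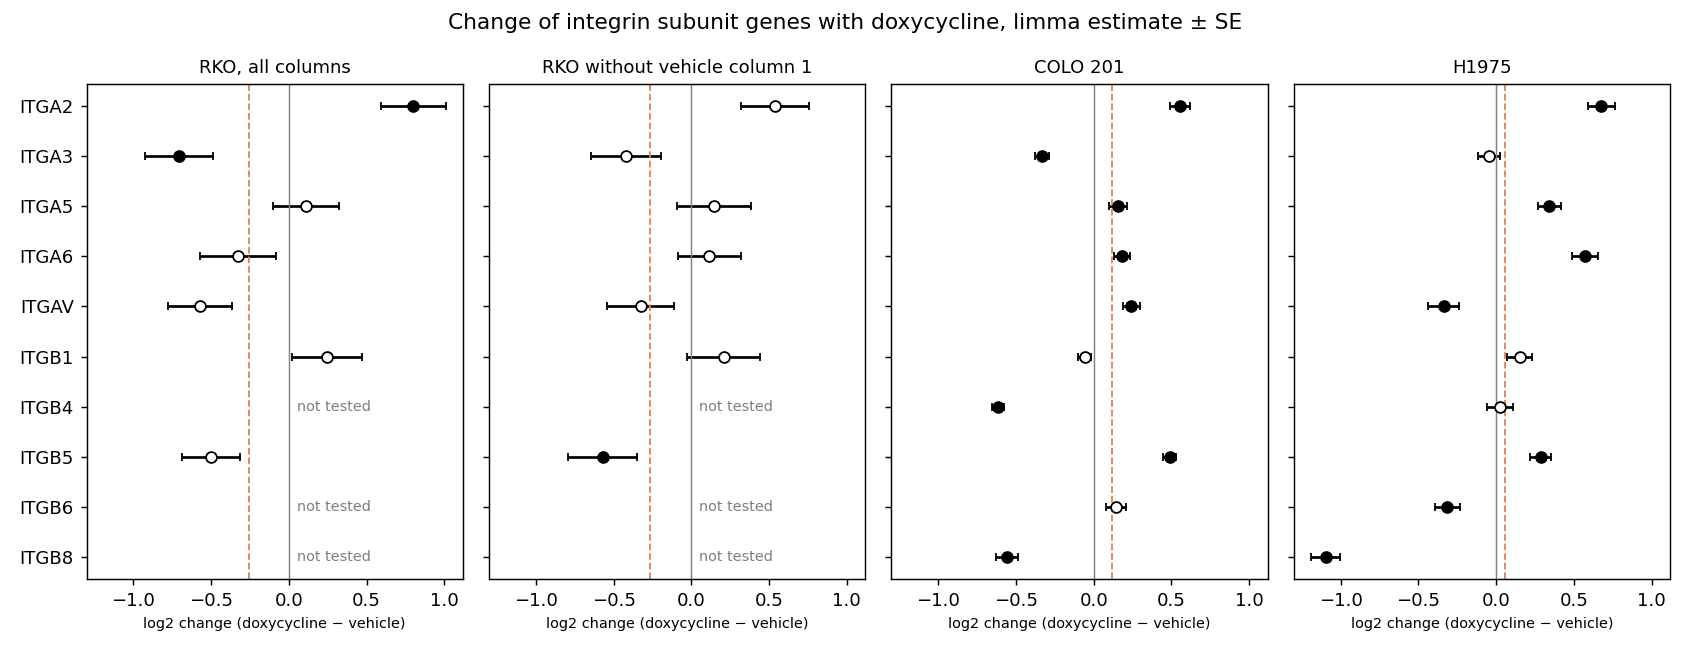
Log2 change of each member with doxycycline against vehicle, with its SE from limma on log2(TPM + 1), in RKO, RKO without vehicle column 1, COLO 201 and H1975. Filled points passed an adjusted p of 0.05, open points did not, and the dashed line is the median of all genes tested in that fit. ITGA2 lies right of the dashed line in every panel, from 0.54 to 0.80.

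**Figure D2:**
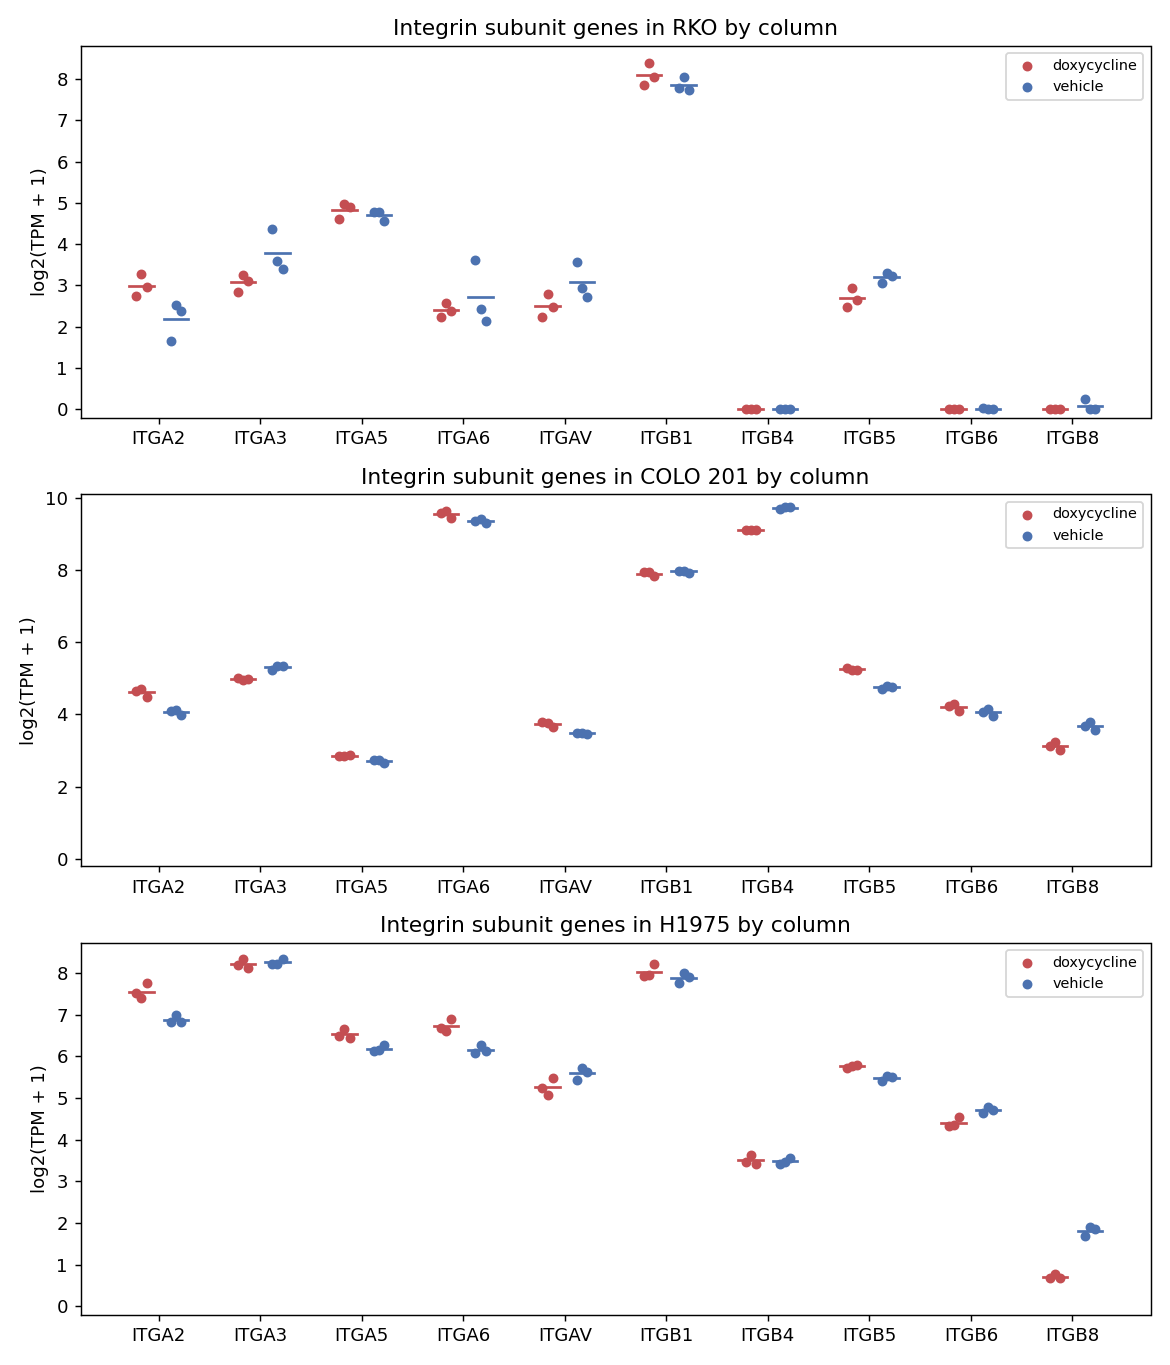
Level of each member in every column on the log2(TPM + 1) scale, with a line at the mean of the 3 columns, doxycycline in red and vehicle in blue. ITGB4 and ITGA6 lead in COLO 201, ITGB1 in RKO, and ITGA3 and ITGB1 in H1975.

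The lines differed in which subunits led. In RKO, ITGB1 averaged 276 TPM with doxycycline and 231 TPM with vehicle, ITGA5 came next with 27.3 TPM with doxycycline and 25.2 TPM with vehicle, and no other member exceeded a mean of 13.4 TPM in either arm. ITGB4 was at 0.0139 TPM or less in RKO, ITGB6 was listed at 0 in 5 of the 6 columns and reached 0.0250 TPM in vehicle column 1, and ITGB8 was at 0 in the same 5 and at 0.183 TPM in that column. In COLO 201 the order was ITGA6, ITGB4 and ITGB1 with doxycycline and ITGB4, ITGA6 and ITGB1 with vehicle, with no overlap between neighbours. ITGA5 was the lowest member of COLO 201, at 6.26 ± 0.113 TPM with doxycycline and 5.52 ± 0.228 TPM with vehicle. In H1975, ITGA3 averaged 296 TPM with doxycycline and 304 TPM with vehicle and ITGB1 262 TPM with doxycycline and 235 TPM with vehicle, and their columns overlapped with doxycycline. Summed over the 10 members, COLO 201 held 1688, 1733 and 1589 TPM with doxycycline, against 1850.1, 1913 and 1849.9 TPM with vehicle. H1975 held 1023, 1049.5 and 1119 TPM with doxycycline, against 876, 959 and 947 TPM with vehicle, so the summed level was lower with doxycycline in COLO 201 and higher in H1975 in every column. In RKO the arms overlapped, with 278, 397 and 322 TPM with doxycycline and 297, 326 and 265 TPM with vehicle.

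ITGA2, which with ITGB1 forms a collagen receptor, was the member whose change was called higher in all 3 lines. Genes tested in all 3 lines numbered 8960, and 0.558% of them were called higher in each. In COLO 201 ITGA2 had 24.4, 25.2 and 21.4 TPM with doxycycline, against 16.1, 16.5 and 14.8 TPM with vehicle. Every doxycycline column exceeded every vehicle column, and the change was 0.55 ± 0.06 (SE; limma adjusted p = 1.41e-05). In H1975 ITGA2 had 181, 167 and 215 TPM with doxycycline, against 112, 126 and 112 TPM with vehicle. The arms were again apart, with a change of 0.68 ± 0.09 (limma adjusted p = 5.46e-05). In RKO ITGA2 had 5.73, 8.62 and 6.77 TPM with doxycycline, against 2.17, 4.80 and 4.17 TPM with vehicle. The arms did not overlap, the lowest value being that of vehicle column 1, and the change was 0.80 ± 0.21 (limma adjusted p = 0.0074). It was 0.54 ± 0.22 without vehicle column 1 (limma adjusted p = 0.0594), and the call was also lost without doxycycline column 1 (limma adjusted p = 0.0595) or doxycycline column 2 (limma adjusted p = 0.0727). With columns rescaled ITGA2 was higher in RKO both with all columns, at 1.05, and without vehicle column 1, at 0.80 (limma adjusted p = 5.13e-07). In bulk samples, fewer cells of a kind and less RNA per cell cannot be told apart, here or below.

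The ratio of ITGA2 to ITGB1 within a column does not depend on how the column was scaled. It was 0.0248, 0.0260 and 0.0255 with doxycycline in RKO, against 0.00993, 0.0182 and 0.0197 with vehicle. In COLO 201 it was 0.0998, 0.102 and 0.0950 with doxycycline, against 0.0638, 0.0658 and 0.0611 with vehicle. In H1975 it was 0.742, 0.674 and 0.732 with doxycycline, against 0.519, 0.499 and 0.4696 with vehicle. The arms of the ratio did not overlap in any line, vehicle column 1 of RKO included. ITGA2 also took a larger share of the summed TPM of the 5 alpha members with doxycycline in every line. In H1975 it was 23.3% to 29.2% with doxycycline against 17.9% to 20.3% with vehicle. In COLO 201 it was 2.82% to 2.93% against 2.11% to 2.21%, and in RKO 13.1% to 14.8% against 3.08% to 9.20%.

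**Figure D3:**
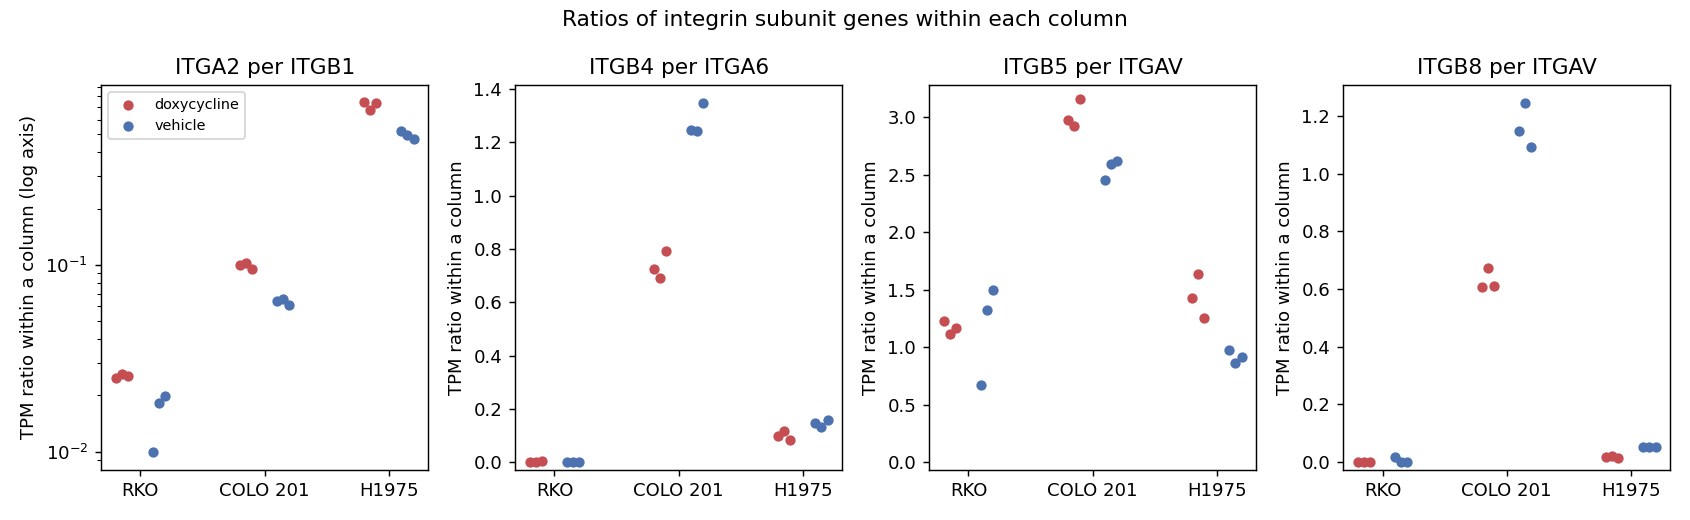
TPM ratios between members within each column, for ITGA2 per ITGB1 (log axis), ITGB4 per ITGA6, ITGB5 per ITGAV and ITGB8 per ITGAV, in each line, doxycycline left of vehicle. In COLO 201 and H1975 the arms of all 4 ratios are apart, and in RKO only those of ITGA2 per ITGB1.

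Among the laminin receptors, ITGA6 and ITGA3 moved in different ways. ITGA6, the alpha subunit shared by ITGB1 and ITGB4, rose in H1975, with 102, 96.7 and 118 TPM with doxycycline against 66.2, 76.2 and 68.9 TPM with vehicle. Its change there was 0.57 ± 0.08 (limma adjusted p = 0.000131). In COLO 201 ITGA6 had 757, 797 and 689 TPM with doxycycline, against 657, 684 and 633 TPM with vehicle. The arms did not overlap, and its change of 0.18 ± 0.05 passed the test (limma adjusted p = 0.0112), but with rescaled columns it was 0.05 (limma adjusted p = 0.4), so the call rests on the scale. In RKO ITGA6 had 3.72, 4.92 and 4.23 TPM with doxycycline, against 11.3, 4.35 and 3.41 TPM with vehicle. Vehicle column 1 alone set the sign there, since the change was -0.33 ± 0.24 (limma adjusted p = 0.348) with it and 0.12 ± 0.20 (limma adjusted p = 0.706) without it. Without it and with rescaled columns ITGA6 was called higher, at 0.37 (limma adjusted p = 0.000195).

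ITGA3, whose dimer with ITGB1 binds laminins of the basement membrane, fell in COLO 201, with 31.0, 29.9 and 30.4 TPM with doxycycline against 36.8, 39.4 and 39.4 TPM with vehicle. The change was -0.33 ± 0.04 (limma adjusted p = 4.95e-05). H1975 showed ITGA3 at 289.6, 322 and 276 TPM with doxycycline, against 294, 298 and 321 TPM with vehicle, and its change of -0.04 ± 0.07 did not pass the test (limma adjusted p = 0.659). In RKO, ITGA3 had 6.23, 8.60 and 7.65 TPM with doxycycline, against 19.6, 11.1 and 9.54 TPM with vehicle, and the arms did not overlap. The change was -0.71 ± 0.22 (limma adjusted p = 0.0237), but -0.42 ± 0.23 (limma adjusted p = 0.174) without vehicle column 1, and the call was also lost without doxycycline column 1, 2 or 3 (limma adjusted p = 0.228, 0.052 and 0.0679) and with rescaled columns (limma adjusted p = 0.244). With vehicle column 1 left out and columns rescaled, ITGA3 was called lower, at -0.13 (limma adjusted p = 0.0388).

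ITGB4, which holds the hemidesmosome through its long cytoplasmic tail, fell in COLO 201, where it had 549.9, 552 and 546 TPM with doxycycline against 819, 851 and 853 TPM with vehicle. The change was -0.61 ± 0.04 (limma adjusted p = 6.9e-08), and it was called in each of the alternatives that were run, with values from -0.75 to -0.60. In H1975 ITGB4 had 9.98, 11.4 and 9.63 TPM with doxycycline, against 9.68, 9.93 and 10.8 TPM with vehicle, and its change of 0.03 ± 0.08 was not called (limma adjusted p = 0.823). The ratio of ITGB4 to its partner ITGA6 in COLO 201 was 0.727, 0.692 and 0.793 with doxycycline, against 1.25, 1.24 and 1.35 with vehicle. In H1975 it was 0.0982, 0.118 and 0.0814 with doxycycline, against 0.146, 0.130 and 0.156 with vehicle. ITGB4 exceeded ITGA6 in all 3 vehicle columns of COLO 201 and in none of its doxycycline columns. Of the 6 colon markers, whose sum was also lower with doxycycline in COLO 201, VIL1, LGALS4 and GPA33 were called lower and KRT20 higher, by 0.47 (limma adjusted p = 2.44e-05). CDH17 averaged 2.42 TPM with doxycycline and 0.414 TPM with vehicle, and CDX2 0.891 TPM with doxycycline and 0.0955 TPM with vehicle, so the markers did not move one way.

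ITGB1, the shared beta subunit, passed the test in none of the lines. It had 231, 331.8 and 265 TPM with doxycycline and 219, 264 and 211 TPM with vehicle in RKO, with a change of 0.24 ± 0.22 (limma adjusted p = 0.454), and of 0.21 ± 0.24 without vehicle column 1 (limma adjusted p = 0.546). COLO 201 had 244, 247 and 225 TPM with doxycycline and 252, 250.3 and 243 TPM with vehicle, with a change of -0.06 ± 0.04 (limma adjusted p = 0.258). H1975 had 244, 248 and 294 TPM with doxycycline and 215, 253 and 238 TPM with vehicle, with a change of 0.15 ± 0.08 (limma adjusted p = 0.163). The arms overlapped in every line. With rescaled columns ITGB1 was called higher in RKO (0.54, limma adjusted p = 0.00348, and 0.53, limma adjusted p = 3.65e-05, without vehicle column 1) and lower in COLO 201 (-0.19, limma adjusted p = 0.00157), so its call depends on the scale there.

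ITGA5, the fibronectin receptor's alpha subunit, rose in H1975, with 89.3, 99.2 and 84.9 TPM with doxycycline against 69.1, 70.1 and 75.5 TPM with vehicle. That change was 0.34 ± 0.07 (limma adjusted p = 0.00253). In COLO 201 ITGA5 had 6.14, 6.28 and 6.37 TPM with doxycycline and 5.64, 5.67 and 5.26 TPM with vehicle, and the arms did not overlap. Its change of 0.16 ± 0.06 passed narrowly (limma adjusted p = 0.0385), and not without any single column (limma adjusted p from 0.0591 to 0.16) nor with rescaled columns (0.04, limma adjusted p = 0.503). In RKO ITGA5 had 23.3, 30.2 and 28.6 TPM with doxycycline and 26.5, 26.4 and 22.6 TPM with vehicle, with a change of 0.11 ± 0.21 (limma adjusted p = 0.734), and of 0.15 ± 0.24 without vehicle column 1 (limma adjusted p = 0.676). With rescaled columns ITGA5 was called higher in RKO, at 0.40 (limma adjusted p = 0.0159), and at 0.46 without that column (limma adjusted p = 5.63e-05). Fibronectin itself, FN1, is described with the matrix ligands below.

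ITGAV, the alpha subunit of the vitronectin and TGF-beta binding receptors, went in opposite directions in COLO 201 and H1975. In COLO 201 it had 12.7, 12.5 and 11.6 TPM with doxycycline, against 10.3, 10.3 and 10.02 TPM with vehicle. The arms did not overlap, and its change was 0.24 ± 0.05 (limma adjusted p = 0.00219). In H1975 ITGAV had 36.4, 32.6 and 43.3 TPM with doxycycline, against 42.2, 51.8 and 48.4 TPM with vehicle. The arms overlapped, and the change was -0.34 ± 0.10 (limma adjusted p = 0.0161), but the call was lost without vehicle column 2 (limma adjusted p = 0.051) or vehicle column 3 (limma adjusted p = 0.0556). In RKO ITGAV had 3.73, 5.97 and 4.53 TPM with doxycycline, against 10.9, 6.66 and 5.61 TPM with vehicle, and its change of -0.57 ± 0.21 narrowly missed the threshold (limma adjusted p = 0.0524). The change was -0.33 ± 0.21 without vehicle column 1 (limma adjusted p = 0.271).

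ITGB5, a beta partner of ITGAV, rose in COLO 201 and H1975. It had 37.9, 36.5 and 36.5 TPM with doxycycline in COLO 201, against 25.3, 26.7 and 26.3 TPM with vehicle, a change of 0.49 ± 0.04 (limma adjusted p = 1.49e-06). H1975 gave 51.9, 53.3 and 54.5 TPM with doxycycline, against 41.3, 44.9 and 44.2 TPM with vehicle, a change of 0.29 ± 0.07 (limma adjusted p = 0.00425). The arms were apart in both lines. RKO went the other way, with 4.58, 6.68 and 5.29 TPM with doxycycline against 7.32, 8.80 and 8.39 TPM with vehicle, arms that did not overlap and a change of -0.50 ± 0.18 (limma adjusted p = 0.0568). ITGB5 was called lower in RKO without vehicle column 1, at -0.57 ± 0.22 (limma adjusted p = 0.0482), with rescaled columns at -0.24 (limma adjusted p = 0.0451), and with both at -0.29 (limma adjusted p = 0.00115).

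ITGB8, the beta subunit that presents latent TGF-beta, fell in COLO 201 and H1975. In COLO 201 it had 7.72, 8.41 and 7.08 TPM with doxycycline, against 11.8, 12.8 and 10.9 TPM with vehicle, with a change of -0.56 ± 0.07 (limma adjusted p = 3.15e-05). In H1975 ITGB8 had 0.611, 0.716 and 0.600 TPM with doxycycline, against 2.22, 2.72 and 2.62 TPM with vehicle, a ratio of the means of 0.255. Its change was -1.10 ± 0.09 (limma adjusted p = 1.47e-06), for a gene that passed the minimum of 1 TPM only through its vehicle columns. With no minimum, where only genes with no signal in any column were left out, ITGB8 had the same change and a limma adjusted p of 0.000284 in H1975. Its call in H1975 is read from that fit. Genes tested in COLO 201 and H1975 numbered 10823, and 14% of them were called higher in both, as ITGA2, ITGA5, ITGA6 and ITGB5 were. Of these, the COLO 201 calls of ITGA5 and ITGA6 were lost with rescaled columns, as given above. ITGB6, the epithelial activator of TGF-beta, had 17.99, 18.6 and 16.0 TPM with doxycycline in COLO 201 and 15.9, 16.8 and 14.6 TPM with vehicle, with overlapping arms and a change of 0.14 ± 0.07 (limma adjusted p = 0.0774). The H1975 columns of ITGB6 were lower with doxycycline, with 19.0, 19.3 and 22.2 TPM with doxycycline against 23.9, 26.7 and 25.4 TPM with vehicle, a change of -0.31 ± 0.08 (limma adjusted p = 0.00682).

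Among ITGB5, ITGB6 and ITGB8 within a column, doxycycline went with a larger ITGB5 and a smaller ITGB8 share in COLO 201 and H1975. ITGB1 and ITGB3, also partners of ITGAV, were not counted in these shares. ITGB5 took 59.6%, 57.5% and 61.3% of the summed TPM of ITGB5, ITGB6 and ITGB8 with doxycycline in COLO 201, against 47.7%, 47.4% and 50.7% with vehicle. ITGB8 took 12.1%, 13.2% and 11.9% with doxycycline, against 22.3%, 22.7% and 21.1% with vehicle, so both shares were apart between the arms. In H1975 ITGB5 took 72.5%, 72.7% and 70.5% with doxycycline and 61.3%, 60.4% and 61.2% with vehicle, and ITGB8 took 0.855%, 0.977% and 0.776% with doxycycline and 3.29%, 3.66% and 3.63% with vehicle. ITGB6 took 26.6%, 26.3% and 28.7% with doxycycline in H1975, against 35.4%, 35.9% and 35.1% with vehicle, and 26.8% to 29.2% with doxycycline against 28.2% to 29.97% with vehicle in COLO 201, where the arms overlapped. In RKO, where ITGB6 and ITGB8 were near 0, ITGB5 took 100% in all columns except vehicle column 1, with 97.2%. ITGB6 per ITGAV averaged 0.542 with doxycycline and 0.535 with vehicle in H1975. In COLO 201 it averaged 1.43 with doxycycline and 1.54 with vehicle, and its arms overlapped in both lines. Per ITGAV, ITGB8 was at 0.607, 0.674 and 0.612 with doxycycline in COLO 201, against 1.15, 1.25 and 1.09 with vehicle, and ITGB5 at 2.98, 2.93 and 3.16 with doxycycline, against 2.46, 2.60 and 2.62 with vehicle.

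The change itself was compared between lines in a joint limma fit, as the difference of the doxycycline-minus-vehicle change of the first line minus that of the second. That fit shares the spread of a gene over its lines, although the RKO columns spread more. For ITGB5 the SE of the COLO 201 and RKO difference was 0.15, below the SE of 0.18 for RKO alone. The p-values against RKO may thus be too small, and those of COLO 201 against H1975 in the fit of all 3 lines too large. COLO 201 and H1975 differed for 0 of 7 members in the fit of all 3 lines, where 7.34% of all genes were called, and 1 of the 7, ITGAV, had an unadjusted p under 0.05. In a fit of COLO 201 and H1975 alone, added after the data were seen, 7 of 10 differed, beside 38.6% of all genes. In it ITGB4 differed by -0.64 ± 0.08 (limma adjusted p = 1.77e-05), ITGAV by 0.58 ± 0.12 (limma adjusted p = 0.00171), ITGB8 by 0.54 ± 0.12 (limma adjusted p = 0.00167) and ITGB6 by 0.46 ± 0.11 (limma adjusted p = 0.00293). ITGB8, counted among the 7, passed the minimum in H1975 only through its vehicle columns, so no call is read from its difference. ITGA6, ITGA3 and ITGB5 also differed, by -0.39, -0.29 and 0.20, while ITGA2 did not, at -0.12 ± 0.12 (limma adjusted p = 0.438), and neither did ITGA5 and ITGB1. COLO 201 and RKO differed for 2 of 7 members, beside 48.3% of all genes, and both were higher in COLO 201, ITGB5 by 0.99 ± 0.15 (limma adjusted p = 3.68e-05) and ITGAV by 0.82 ± 0.23 (limma adjusted p = 0.00796). Without vehicle column 1 of RKO they were 1.06 and 0.57 (limma adjusted p = 2.09e-09 and 0.00122), beside 57.9% of all genes. H1975 and RKO differed for 3 of 7, beside 41.2% of all genes, each higher in H1975, ITGB5 by 0.79 (limma adjusted p = 0.000493), ITGA6 by 0.90 (limma adjusted p = 0.0281) and ITGA3 by 0.66 (limma adjusted p = 0.0277). Without that column the same 3 were called, at 0.86, 0.46 and 0.38 (limma adjusted p = 2.11e-06, 0.0171 and 0.0495), beside 52.5% of all genes. These differences include the shift in the medians of all genes. Less each fit's median, ITGA3 was at -0.10 in H1975 and -0.15 in RKO without that column. For ITGA6 these values were 0.51 and 0.38, and for ITGB5 0.23 and -0.30. For ITGAV they were 0.13 in COLO 201, -0.32 in RKO with all columns and -0.06 in RKO without vehicle column 1. Values less the median were not tested. The test did not call a difference in ITGA2 for any pair of lines, which does not show that its changes were alike.

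Other integrin subunits that were expressed varied by line, and 3 of 16 could be tested in RKO, 3 in COLO 201 and 6 in H1975. In H1975, ITGB3, the other vitronectin-binding beta partner of ITGAV, rose with 16.4, 17.6 and 17.2 TPM with doxycycline against 12.5, 12.6 and 13.7 TPM with vehicle (0.38 ± 0.07, limma adjusted p = 0.00138). ITGA1, a collagen receptor subunit, rose there too, by 0.40 ± 0.09 (limma adjusted p = 0.00347), as did ITGAE, by 0.38 ± 0.08 (limma adjusted p = 0.00204). ITGB2, the leukocyte beta subunit, fell by 0.42 (limma adjusted p = 0.0039), and ITGA7 missed the threshold (0.24, limma adjusted p = 0.0671). ITGA2B averaged 0.963 TPM with doxycycline and 1.59 TPM with vehicle in H1975, and it passed the minimum only through its vehicle columns, so no call is read from it. In COLO 201 ITGAE rose by 0.33 ± 0.06 (limma adjusted p = 0.000455) and ITGA7 fell by 0.32 (limma adjusted p = 0.0153), while ITGA1, at 12.9 TPM in both arms, was not called (limma adjusted p = 0.971). In RKO the leukocyte integrin ITGAX rose, with 3.24, 4.25 and 3.87 TPM with doxycycline against 1.15, 2.10 and 1.56 TPM with vehicle (0.89 ± 0.20, limma adjusted p = 0.00229), and ITGAX was also called without vehicle column 1, at 0.76 (limma adjusted p = 0.00073). ITGA7 and ITGAE, not called with all columns of RKO (limma adjusted p = 0.44 and 0.145), were lower without that column (limma adjusted p = 0.022 and 0.00465). A further 3 subunits marked vehicle column 1, ITGA4 at 5.91 TPM against 0 in the other 5 columns, ITGA10 at 2.55 TPM against 0.0275 to 0.0656 TPM and ITGB3 at 1.52 TPM against 0.00522 TPM or less.

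**Figure D4:**
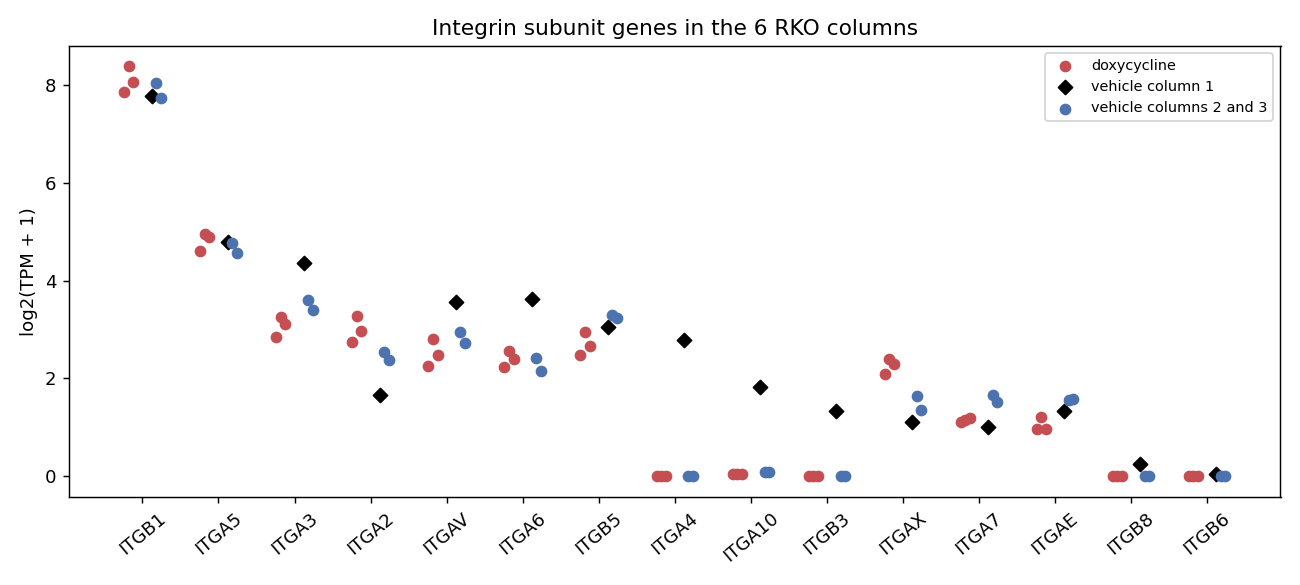
Level of the members and of other integrin subunits in the 6 RKO columns on the log2(TPM + 1) scale, with vehicle column 1 as black diamonds. That column stands apart for ITGA4, ITGA10, ITGB3, ITGA6 and ITGA3. It also lies above the other vehicle columns for ITGAV and below them for ITGA2, and lies with them for ITGB1 and ITGA5.

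The adaptors that link integrins to actin were counted as a list of 30. The shares of all genes called in each line, given above, stand beside this and the following counts by adjusted p. No list was tested against them. Counts at an unadjusted p have no such share beside them and are not read as a result about a list. In COLO 201, 27 were tested, 14 were higher and 9 lower, with a median change of 0.16 against 0.12 for all genes. TNS4, a tensin of focal adhesions, averaged 404 ± 15.6 TPM with doxycycline and 915 ± 22.6 TPM with vehicle (-1.18, limma adjusted p = 7.76e-10), FERMT1, the kindlin of epithelia, 125 TPM with doxycycline and 229 TPM with vehicle (-0.87, limma adjusted p = 2.01e-08) and PXN, paxillin, 58.4 TPM with doxycycline and 85.8 TPM with vehicle (-0.55, limma adjusted p = 2.97e-07). NEDD9, a scaffold of the Cas family, rose by 0.52 (limma adjusted p = 3e-06). In H1975, 29 were tested, 5 were higher and 7 lower, with a median of -0.03 against 0.06. TNS3 fell by 0.75 (limma adjusted p = 6.83e-06), TNS4 by 0.83 (limma adjusted p = 1.66e-05) and the kinase SRC by 0.54 (limma adjusted p = 0.000265), and the kinase PTK2B rose by 0.53 (limma adjusted p = 7.91e-05). RKO had 24 tested, 0 higher and 6 lower by limma (0 and 12 at an unadjusted p under 0.05), with a median of -0.41 against -0.26. Of the 12, 1 passed the minimum only through the vehicle arm. There were, without vehicle column 1, 23 tested, 0 higher and 4 lower by limma (0 and 8 unadjusted). KANK2, which binds talin, fell by 1.64 (limma adjusted p = 2.42e-05) with all columns and by 1.21 (limma adjusted p = 7.58e-10) without that column. LIMS1, the PINCH adaptor of the ILK complex, fell by 0.71 (limma adjusted p = 0.00854) and by 0.68 (limma adjusted p = 0.00412). ITGB1BP1, a binding partner of the ITGB1 tail, fell by 0.66 (limma adjusted p = 0.0227) and by 0.77 (limma adjusted p = 0.00699). TLN1, talin, was called with all columns (-0.69, limma adjusted p = 0.0215) and PARVA, a parvin, without that column (-0.53, limma adjusted p = 0.0407).

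Of the 7 partners of ITGA6 and ITGB4 in hemidesmosomes and their laminin, 6 were tested in COLO 201. By limma adjusted p 5 were higher and 0 lower, beside 45.9% and 15% of all genes, and 5 and 0 at an unadjusted p under 0.05. COL17A1, the hemidesmosomal collagen, was below the minimum, at 0.340 TPM with doxycycline and 0.520 TPM with vehicle, arms that did not overlap. DST, the hemidesmosomal plakin BPAG1, averaged 11.1 TPM with doxycycline and 6.83 TPM with vehicle (0.63, limma adjusted p = 3.38e-06), and LAMA3, a chain of that laminin, 12.7 TPM with doxycycline and 9.79 TPM with vehicle (0.35, limma adjusted p = 0.000178). PLEC, plectin, and the tetraspanin CD151 rose by 0.19 and 0.15, which exceeds the line's median change by only 0.08 and 0.03. Among 7 tested in H1975, 2 were higher and 2 lower. LAMB3 rose by 0.39 (limma adjusted p = 0.000431), and PLEC fell by 0.25 (limma adjusted p = 0.0137) and COL17A1 by 0.30 (limma adjusted p = 0.0144). In RKO, 4 were tested, 1 was higher and 0 lower by limma (1 and 1 at an unadjusted p under 0.05), LAMB3 at 147 TPM with doxycycline and 76.2 TPM with vehicle (1.01, limma adjusted p = 0.00708) and called too without vehicle column 1 (0.66, limma adjusted p = 0.0349), where again 4 were tested, 1 was higher and 0 lower by limma (1 and 0 unadjusted).

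Other matrix ligands were counted as a list of 27, and the difference between lines was not tested for them. FN1, fibronectin, had 172, 156 and 159 TPM with doxycycline in COLO 201, against 25.2, 25.0 and 22.9 TPM with vehicle (2.69 ± 0.05, limma adjusted p = 6.15e-12). Of 13 tested in COLO 201, 8 were higher and 1 lower, beside 45.9% and 15% of all genes, with a median of 0.30. Among the 8 was 1 that passed the minimum only through its doxycycline columns, and TNC rose by 0.80, THBS1 by 0.98 and LAMC1 by 0.75. In H1975, 18 were tested, 1 was higher and 12 lower, beside 23.9% and 14.6% of all genes, with a median of -0.28 against 0.06. COL1A1 averaged 11.0 TPM with doxycycline and 34.1 TPM with vehicle there (-1.55, limma adjusted p = 1.57e-08), COL5A1 20.1 TPM with doxycycline and 35.5 TPM with vehicle (-0.79, limma adjusted p = 5.24e-06) and SPP1, osteopontin, 29.97 TPM with doxycycline and 43.8 TPM with vehicle (-0.53, limma adjusted p = 7.73e-05). COL1A2 fell there by 0.60 (limma adjusted p = 9.87e-05). In RKO with all columns, 11 of the 21 tested passed the minimum only through the vehicle arm, so no count is read from that fit. Without vehicle column 1, 10 were tested, 0 of them in that way, and 0 were higher and 2 lower by limma (0 and 2 unadjusted), with a median of -0.20 against -0.27. These were MFGE8, a ligand of ITGAV dimers, at -0.56 (limma adjusted p = 0.00552) and COL6A1 at -0.48 (limma adjusted p = 0.0368), and COL6A1 was also called with all columns (limma adjusted p = 0.00983).

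Of 15 genes for latent TGF-beta, its presenters and its responsive genes, 10 were tested in COLO 201, 3 were higher and 4 lower, 1 of the 4 having passed the minimum only through its vehicle columns, and 13 in H1975, 2 were higher and 6 lower. TGFBI, a TGF-beta-induced matrix protein, averaged 228 TPM with doxycycline and 132 TPM with vehicle in COLO 201 (0.78, limma adjusted p = 1.63e-08), but 449 TPM with doxycycline and 1069 TPM with vehicle in H1975 (-1.25, limma adjusted p = 1.57e-08). PMEPA1, a TGF-beta-induced inhibitor of its signalling, fell in both, by 0.61 in COLO 201 (limma adjusted p = 1.49e-07) and by 1.05 in H1975 (limma adjusted p = 5.57e-07). NRROS, which tethers latent TGF-beta, fell by 1.02 in COLO 201 (limma adjusted p = 4.79e-08), where LTBP3 rose by 0.68 (limma adjusted p = 1.72e-07). LTBP2 fell by 0.53 and TGFB2, a TGF-beta ligand, by 0.41 in H1975 (limma adjusted p = 0.000246 and 0.00144). In RKO, 10 were tested, 0 were higher and 2 lower by limma (0 and 4 at an unadjusted p under 0.05), TGFBR1 with a change of -1.003 (limma adjusted p = 0.0023) and LTBP1 with -0.84 (limma adjusted p = 0.0239). Of the 4 at an unadjusted p, 1 passed the minimum only through the vehicle arm. Of 9 tested without vehicle column 1, 0 were higher and 1 lower by limma (0 and 2 unadjusted), TGFBR1 at -0.67 (limma adjusted p = 0.0149). Of 18 membrane partners and trafficking proteins, 18 were tested in COLO 201, 6 were higher and 4 lower, 17 in H1975, 5 higher and 1 lower, and 17 in RKO, 0 higher and 1 lower by limma (0 and 4 at an unadjusted p under 0.05). In RKO without vehicle column 1, 15 were tested, 0 higher and 1 lower by limma (0 and 3 unadjusted). CD9, a tetraspanin partner of integrins, rose by 0.50 in COLO 201 (limma adjusted p = 3.88e-07), as did SNX17, which sorts integrins for recycling, by 0.47 and the GTPase RAB4A by 0.30 (limma adjusted p = 2.11e-05 and 0.000146). RAB25, a GTPase of integrin recycling, rose by 0.37 in COLO 201 (limma adjusted p = 1.52e-05) and by 0.53 in H1975 (limma adjusted p = 0.000119). EHD1 rose by 0.31, NUMB rose by 0.21 and BSG, basigin, fell by 0.26 in H1975 (limma adjusted p = 0.0048, 0.0168 and 0.0143). ARF6, another recycling GTPase, was the gene called lower in RKO, at -0.72 (limma adjusted p = 0.0183) with all columns and at -0.71 (limma adjusted p = 0.0198) without vehicle column 1.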

How the data were processed

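Total RNA of cells cultured in triplicate was isolated with an RNeasy Plus Mini kit and made into TruSeq Stranded mRNA libraries, per the labels' protocols. STAR and GRCh38 are named in the submitters' processing notes, without versions, and the counting tool and annotation are not given in the sources used here. The authors deposited 1 table of TPM per line, with 6 columns each and every column summing to 1000000, so read depth is unknown and the number of columns limits the precision. The 18 sample records share 1 agent label, so the arm was read from the column headings, which cannot be tied to single sample titles. In COLO 201, 28 entries named as dates were left out.

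Each table was fitted alone with limma (version 3.58.1, R 4.3.3) on log2(TPM + 1), over genes averaging 1 TPM or more, with a variance trend. Tests were two-sided and p-values were adjusted by Benjamini-Hochberg over every gene tested in a line. The script was tested on simulated data with 200 genes changed by 1 on the log2 scale. Of these 76.5% were recovered for RKO over 10551 genes, 99.5% for COLO 201 over 11566 and 100% for H1975 over 12359. Among the calls 4.38%, 4.33% and 3.85% were false. For RKO the spread of each gene was taken without vehicle column 1, so its recovery does not cover the spread that this column adds. Positions come from GENCODE release 29. All 10 members, MUC1 and other tested integrin subunits were named, and of each list up to 4 called genes per line with the smallest adjusted p. VIM, the leukocyte and colon markers, COL17A1 of COLO 201, and ITGA4, ITGA10 and ITGB3 of RKO, were named after their values were seen. A called gene that this rule would name is not reported here, and CTGF in RKO is left out since it passed the minimum only through the vehicle arm. The members and the lists were chosen with earlier results of these data known. Other pseudocounts, minimums and scalings, a replicate block and fits without each column were tried.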

Additional observations from a re-analysis of the deposited data

Results flagged for a closer look

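A joint limma fit called the change with doxycycline different between lines for the following members, each given as the first line minus the second on the log2(TPM + 1) scale. Its spread was shared over the lines, which limits its p-values as described above. COLO 201 exceeded RKO by 0.99 for ITGB5 and by 0.82 for ITGAV, and by 1.06 and 0.57 without vehicle column 1 of RKO. H1975 exceeded RKO by 0.90 for ITGA6, by 0.79 for ITGB5 and by 0.66 for ITGA3. Without vehicle column 1 of RKO these were 0.46, 0.86 and 0.38. Differences from RKO include the shift in the medians of all genes, described above for ITGA3, ITGA6, ITGB5 and ITGAV. For COLO 201 and H1975 the fit of all 3 lines called 0 of 7 members. The fit of those lines alone was added after the data were seen, and 38.6% of all genes were called in it. There the difference was -0.64 for ITGB4, -0.39 for ITGA6, -0.29 for ITGA3, 0.20 for ITGB5, 0.46 for ITGB6, 0.54 for ITGB8 and 0.58 for ITGAV. ITGB8 passed the minimum in H1975 only through its vehicle columns, so no call is read from its difference. ITGB5 was thus called in both comparisons with RKO, where its own change was -0.50, against 0.49 in COLO 201 and 0.29 in H1975.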

How the results depend on the processing

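In COLO 201, 7 to 9 members were called in the alternatives run and in H1975 6 or 7, against 8 and 7 as reported; leaving out each column in turn gave 7 to 8 and 6 to 7. RKO, with 2 called, was less stable: 4 with a pseudocount of 0.1, with rescaled columns or without small noncoding RNA genes, 1 with a pseudocount of 5 and 0 by limma with no minimum TPM, where 28 of 18329 genes were called. With rescaled columns 27.8% of all genes were called, and 23.5% without small noncoding RNA genes, against 18.1% as reported. Leaving out a column gave 0 to 4, with 0 without doxycycline column 1, 1 without vehicle column 1, doxycycline column 2 or doxycycline column 3, 3 without vehicle column 2 and 4 without vehicle column 3. Without vehicle column 1, with 1 called, there were 6 with rescaled columns (where 58.9% of all genes were called, against 20.3%), 2 with no trend, 0 with no minimum or a minimum of 5 TPM, and 0 to 3 with a further column left out. For COLO 201 against H1975, 0 differed as reported, 1 with rescaled columns and 7 in the fit of those lines alone. In that last fit 38.6% of all genes were called, against 7.34% as reported, and ITGB8 is among the 7. For COLO 201 against RKO, 2 differed as reported, 4 with rescaled columns, 6 when vehicle column 1 was also left out, and 2 to 4 with a column left out, the 4 being without RKO vehicle column 3. Where no share of all genes called stands beside a count in this paragraph, its change is not read as a result about the members. For H1975 against RKO, 3 differed as reported and 1 to 3 with a column left out, 1 being without H1975 vehicle column 1 or RKO doxycycline column 1. The replicate block gave 2 calls in RKO, 9 in COLO 201 and 7 in H1975, and 1 for H1975 against RKO; same-numbered columns share only a number, and the correlations of their deviations ran from -0.415 to 0.292. The difference of COLO 201 from RKO reversed for ITGA5 with rescaled columns, to -0.36, and, with vehicle column 1 also left out, to -0.33 for ITGA3, -0.41 for ITGA5 and -0.32 for ITGA6, as did that of H1975 from RKO for ITGAV, to -0.32. The cause of these shifts was not tested. Of the other single values of members, 718 kept their direction and side of the threshold, 18 were called in neither fit and changed sign (ITGA6 in RKO without vehicle column 1 among them), 47 lost a call and 43 gained one.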
